A study of Mus musculus with 127 samples.

Results

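The genes described here are 47 genes of DNA replication and nucleotide supply, taken by symbol from a table of 24320 gene symbols measured in single marrow cells of C57BL/6J mice. Where a symbol had several rows, the row with the highest mean value was used, and all 47 genes were in the table. The cells formed 3 groups: 48 cells with Flvcr deleted (the heme exporter gene, chip SCP2), 31 cells of wild-type mice given the red cell hormone erythropoietin (EPO; 27 cells of chip SCP7 and 4 of chip SCP6), and 48 wild-type cells (chip SCP3). The labels call every cell an erythroblast and give it a class letter from A to D that broadly follows Ter119 within a group. Ter119 is a surface antigen that increases as red cells mature. A letter does not stand for the same Ter119 in every group. Normalized Ter119 of class B ran from 0.00064 to 0.197 in EPO-treated and from 0.330 to 0.541 in wild-type cells. Comparisons of EPO-treated cells with another group within a letter therefore do not set like Ter119 values side by side. Neither the animals behind a group nor the way in which Flvcr was deleted is named, so each group counted as 1 sample, chip and group cannot be told apart, and no difference below has a replicate check or a p-value. The deleted gene, listed as Mfsd7b (Flvcr1), reached detection in 0 of 48 cells with the deletion, 0 of 31 under EPO and 1 of 48 in wild type, so its level does not check the labels.

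Before a cell divides, origins of replication are licensed by the ORC complex, Cdc6 and Cdt1, which load the Mcm helicase onto DNA. In S phase the helicase is activated with Cdc45 and the GINS complex, primase and the replicative polymerases copy the strands behind it, and a sliding clamp with its loader, single-strand binding proteins, a flap nuclease and a ligase complete the work. Ribonucleotide reductase, thymidylate synthase, thymidine kinase and dUTPase supply the building blocks, and histone supply, histone chaperones and maintenance methylation copy the chromatin. Erythroblasts divide rapidly while they mature and leave the cell cycle before they lose the nucleus, and E2F factors are known to switch on many of these genes as cells enter S phase.

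The promoters of 39 of the 47 genes were found in RefSeq (GRCm38.p6), as windows of 300 bases on the strand of the gene, with 47 promoters in all. In these windows 2 kinds of letters were searched on both strands: the E2F-type words TTTCCCGC, TTTCGCGC, TTTGCCGC and TTTGGCGC, and the word CCAAT, which is known to be bound by NF-Y. An E2F-type word was found in 16 of the 47 promoters (34.0%), each of another gene, against 6.36% of the 2453 promoters of expressed genes in the table and 2.26% of all 32851 promoters. CCAAT was found in 28 of the 47 promoters (59.6%), against 41.5% of promoters of expressed genes and 37.4% of all. The 4 promoters shown belong to the helicase genes Mcm3 and Mcm5, the clamp gene Pcna and the thymidine kinase gene Tk1, whose values the results below turn on. Capitals mark the searched words, those on the other strand in their reverse complement.
Mcm3 (chr1:20820263-20820562, minus strand): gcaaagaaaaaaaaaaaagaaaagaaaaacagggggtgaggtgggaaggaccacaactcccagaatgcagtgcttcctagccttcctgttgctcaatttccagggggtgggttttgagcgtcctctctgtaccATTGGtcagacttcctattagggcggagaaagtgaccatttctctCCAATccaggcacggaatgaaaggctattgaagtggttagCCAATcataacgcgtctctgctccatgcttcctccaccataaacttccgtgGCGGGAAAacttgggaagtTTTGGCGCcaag
Mcm5 (chr8:75109259-75109558, plus strand): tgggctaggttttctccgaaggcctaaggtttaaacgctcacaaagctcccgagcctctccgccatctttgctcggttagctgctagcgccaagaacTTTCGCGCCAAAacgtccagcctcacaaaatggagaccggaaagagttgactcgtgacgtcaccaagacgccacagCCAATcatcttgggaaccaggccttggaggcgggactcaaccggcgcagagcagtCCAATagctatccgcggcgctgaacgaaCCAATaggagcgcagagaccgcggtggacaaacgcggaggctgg
Pcna (chr2:132253131-132253430, minus strand): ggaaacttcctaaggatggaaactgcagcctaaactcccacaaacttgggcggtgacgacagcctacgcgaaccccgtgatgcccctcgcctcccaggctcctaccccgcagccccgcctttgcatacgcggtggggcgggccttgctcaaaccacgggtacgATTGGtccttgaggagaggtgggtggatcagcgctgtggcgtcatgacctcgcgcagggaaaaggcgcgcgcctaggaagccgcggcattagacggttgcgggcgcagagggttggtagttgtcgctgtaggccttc
Tk1 (chr11:117825965-117826264, minus strand): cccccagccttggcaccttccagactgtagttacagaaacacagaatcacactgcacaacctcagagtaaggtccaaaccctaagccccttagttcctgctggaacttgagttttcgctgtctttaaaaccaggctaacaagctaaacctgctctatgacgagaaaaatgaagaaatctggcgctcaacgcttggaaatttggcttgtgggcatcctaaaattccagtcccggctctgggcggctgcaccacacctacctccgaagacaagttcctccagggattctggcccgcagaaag

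In Mcm3 the 2 E2F-type words lay just after the start site, in Mcm5 the 2 words overlapped on opposite strands, Pcna had CCAAT alone, and Tk1 had neither word. A match is a description of letters and not of binding, and a window without a match says nothing about the factor.

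The number of replication genes detected in a cell (an RPKM, reads scaled to transcript length and sequencing depth, of at least 1) tracked the number of all genes detected in it. Over all classes a median of 7 of the 47 genes was detected in Flvcr-deleted cells (0 to 37), 21 in EPO-treated cells (3 to 46) and 33.5 in wild-type cells (4 to 47). The median number of all genes detected was 1069 in Flvcr-deleted, 1441 in EPO-treated and 2422 in wild-type cells, so the groups differed in both at once. Over cells of classes B to D, Spearman's rho between the 2 numbers was 0.877 in 30 Flvcr-deleted, 0.859 in 24 EPO-treated and 0.908 in 42 wild-type cells, which share their libraries' depth. The replication genes made up a median of 0.868% of the genes detected in Flvcr-deleted cells, 1.14% in EPO-treated cells and 1.22% in wild-type cells.

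**Figure D1:**
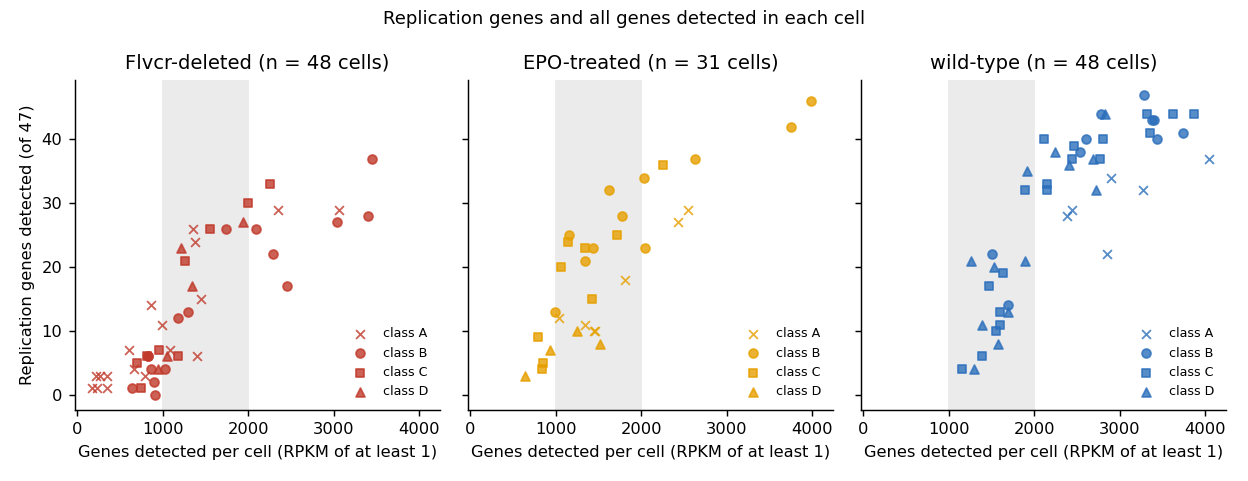
Each point is 1 cell: the horizontal axis gives the genes detected (RPKM of at least 1) and the vertical axis how many of the 47 replication genes were detected, with class letters as symbols and the range of 1000 to 2000 genes shaded. Wild-type cells reach up to 47 replication genes, and most Flvcr-deleted cells lie at the lower left, with a median of 7.

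Among cells binned by the number of detected genes, the order of the groups depended on the bin. Among cells with 1500 to 2000 detected genes, 4 Flvcr-deleted cells had a median of 26.5 replication genes, 5 EPO-treated cells had 25 and 12 wild-type cells had 16.5. Among cells with 2000 to 2500 detected genes, 5 Flvcr-deleted cells had a median of 26, 4 EPO-treated cells 30.5 and 9 wild-type cells 36. From 3000 detected genes upward, 4 Flvcr-deleted cells had a median of 28.5, against 43 in 11 wild-type cells, and these 4 Flvcr-deleted cells had a globin share of the summed RPKM of at most 3.63%. With 1000 to 1500 detected genes, 13 Flvcr-deleted cells had a median of 13, 12 EPO-treated cells 17.5 and 6 wild-type cells 8.5. Flvcr-deleted cells thus had a higher median than wild-type cells in both lower bins and a lower one in both upper bins, with few cells in each. Cells of a bin did not have like numbers of detected genes. From 1500 to 2000, Flvcr-deleted cells at 1557, 1741, 1940 and 1993 detected genes had 26, 26, 27 and 30 replication genes. Wild-type cells at 1891, 1893 and 1920 had 21, 32 and 35, and the others, at 1500 to 1688, had 8 to 22. The part of these positions in the order was not tested. The bins took in cells of class A. From 3000 detected genes upward, the wild-type cells with 3274 and 4047 detected genes and the Flvcr-deleted cell with 3069 were of class A. Without these class A cells, the Flvcr-deleted cells there had 27, 28 and 37 replication genes, and the wild-type cells 40 to 47. The order of the groups in the other bins without class A was not tested.

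Differences between groups are given as differences of the mean level, log2(RPKM + 1), computed separately for every class letter and then averaged, each letter counting alike. This scale understates the change of a gene near 0. A gene counted as lower or higher where this difference was at least 1 in size and had the same sign in every letter compared. Of the 47 genes 44 passed the filter on low values (a mean level of at least 1 over all cells), and Gins3, Pola2 and Pole did not. The filter takes the mean over all groups, so a gene can pass through the group in which it is high.

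Replication genes were lower in Flvcr-deleted than in wild-type cells across every role. Over the 4 classes 39 of the 44 were lower and 0 higher, and of all 2540 genes that passed the filter 44.6% were lower and 0.669% higher. The median difference was -2.03 over the 44 replication genes and -1.21 over all 2540 genes. Over classes B to D alone 39 were again lower and 0 higher, against 48.3% and 3.74% of all genes, with a median of -2.29 against -1.08. Class A held unlike cells: 9 of its 18 Flvcr-deleted cells carry a suffix d in their label and had 169 to 864 detected genes, and its 6 wild-type cells had neither Alas2 nor Slc4a1 detected, with at least 3 granulocyte and monocyte markers in 4 of them. Without the 9 cells of suffix d 35 genes were lower and 0 higher, against 37.0% and 3.50% of all genes, with a median of -1.86 against -1.03. The part of the class A cells in the difference over 4 classes was not tested further. The remaining 5 genes were below 0 as well: Rrm2 (-2.17), Rpa3 (-1.56), Pole2 (-1.37), Chaf1a (-1.14) and Orc1 (-0.97). With a pseudocount of 10, 22 of 44 were lower, against 16.7% of all genes. With a mean level of at least 2 required, 24 of the 26 genes left were lower, against 46.5% of 1214 genes.

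Among the licensing genes 4 of 5 were lower, with a median difference of -1.93. Cdc6 (NM_001025779), which loads the helicase with ORC, was found in 16 of the 48 cells with the deletion, against 39 of 48 in wild type, and its level averaged 1.40 ± 2.31 in Flvcr-deleted cells and 5.11 ± 2.79 in wild-type cells (SD over cells, which describes these cells alone). Its difference was -3.43, and both groups held cells at 0. Orc6 (NR_028268), a subunit of the origin recognition complex, differed by -2.69, and Gmnn (NM_020567), which encodes geminin, the inhibitor of Cdt1, by -1.93. Cdt1, the partner that geminin blocks, differed by -1.62 with a difference of only -0.14 in class A.

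All 11 helicase genes that passed the filter were lower, with a median difference of -2.96. Mcm3 (NM_008563), the Mcm subunit with the promoter shown first, had the largest difference of all 44 genes, -4.09. In Flvcr-deleted cells 11 of 48 had it, at a median of 0 and a highest level of 5.71, and in wild type 33 of 48, at a median of 6.35 and a highest level of 8.83. In each class its mean was lower in Flvcr-deleted cells, by -4.84 in A, -6.12 in B, -3.27 in C and -2.13 in D. Mcm4 (NM_008565) differed by -3.60 and Mcm5 (NM_001302540) by -3.32. The GINS genes, which complete the active helicase, had smaller differences, from -1.42 for Gins2 to -1.56 for Gins4, at lower levels in wild-type cells.

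Polymerase and primase genes had a median difference of -1.57, and 6 of 7 were lower. Prim1 (NM_008921), the catalytic primase subunit, differed by -1.98, with 16 of 48 cells positive after deletion and 31 of 48 in wild type. Pola1 (NM_008892), the catalytic subunit of polymerase alpha, differed by -1.68. Pola2 (NM_001164057), a second subunit of that enzyme, fell short of the filter with a mean level of 0.16 in Flvcr-deleted, 0.80 in EPO-treated and 1.94 in wild-type cells. It was found in 2 of the 48 cells with the deletion, 6 of the 31 under EPO and 18 of 48 in wild type.

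Of the 11 genes of the clamp, its loader, the single-strand binding complex and strand joining, 10 were lower, with a median of -2.44. Rfc2 (NM_020022), a clamp loader subunit, differed by -3.69. Pcna (NM_011045), the clamp itself, differed by -3.16 over the 4 classes, but by -0.98 in class D. It was found in 21 of the 48 cells with the deletion, against 39 of 48 in wild type. Rpa2 (NM_011284), part of the single-strand binding complex, differed by -3.02. Fen1 (NM_007999), the nuclease that trims the flaps of Okazaki fragments, reached detection in 6.25% of Flvcr-deleted cells (3 of 48), 25.8% of EPO-treated cells (8 of 31) and 77.1% of wild-type cells (37 of 48). The exact (Clopper-Pearson) 95% intervals ran from 1.31 to 17.2% after deletion, from 11.9 to 44.6% under EPO and from 62.7 to 88.0% in wild type. These intervals cover counting error within these cells only, and the groups also differed in the number of all genes detected per cell.

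Nucleotide supply had the lowest median of the 6 roles, -3.44, and 4 of its 5 genes were lower. Rrm1 (NM_009103), the large subunit of ribonucleotide reductase, differed by -3.70, Tk1 (NM_001271729), which salvages thymidine, by -3.59, and Tyms (NM_021288), which makes thymidylate, by -3.44. Rrm2 (NM_009104), the small subunit that limits the reductase, had the highest mean level of the 47 genes in every group: 5.62 ± 3.54 in Flvcr-deleted, 8.50 ± 2.81 in EPO-treated and 8.88 ± 2.41 in wild-type cells. Its difference between Flvcr-deleted and wild-type cells was -4.07 in class B and 0.01 in class D. Rrm2 was therefore not counted as lower.

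Among the genes of chromatin copying 4 of 5 were lower, with a median of -2.01. Slbp (NM_001289724), which binds the stem-loop of histone mRNAs, differed by -4.05, with 14 of 48 cells positive after deletion and 43 of 48 in wild type. Uhrf1 (NM_001111080), which brings Dnmt1 to replicated DNA, differed by -2.63, and Dnmt1 (NM_001199432), the maintenance methyltransferase, by -2.01. Chaf1a, a subunit of the histone chaperone CAF-1, was the exception, at 1.18 in class C against -2.80 in class B.

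**Figure D2:**
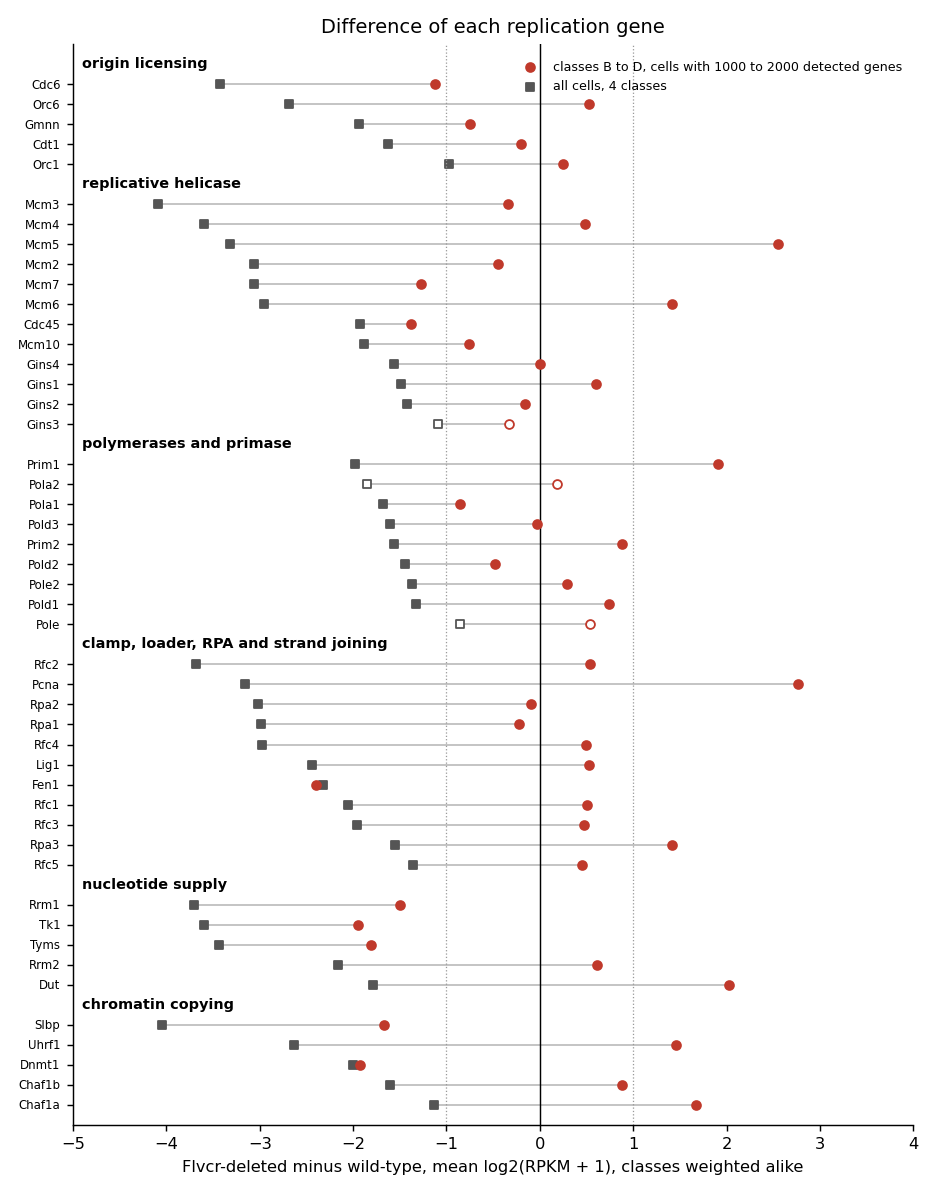
For each of the 47 genes, squares give the Flvcr-deleted minus wild-type difference of mean log2(RPKM + 1) over 4 classes, and circles the same in cells of classes B to D with 1000 to 2000 detected genes; open symbols mark the 3 genes that did not pass the filter, and dotted lines a size of 1. Squares lie below 0 for every gene, while circles spread from -2.40 for Fen1 to 2.77 for Pcna.

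In cells of classes B to D with 1000 to 2000 detected genes the genes parted. This range held 12 Flvcr-deleted cells (4 of each class), 12 EPO-treated cells (5, 5 and 2 of classes B, C and D) and 18 wild-type cells (2, 8 and 8), so that wild-type class B rested on 2 cells. Pcna, Mcm5, Dut, Prim1 and Rpa3 were higher in Flvcr-deleted than in wild-type cells of the range, and Fen1, Tk1, Tyms, Rrm1 and Cdc6 were lower. That is 5 higher and 5 lower of 44, against 16.0% higher and 19.1% lower of all 2540 genes, so the share of replication genes called was no larger than that of genes in general. The median difference was 0.27 over the 44 genes and -0.09 over all 2540. With limits of 800 and 2200 detected genes the median was -0.56, against -0.36 over all genes. There 0 replication genes were higher and 9 lower, against 11.7% and 24.3% of all genes. Beyond the median of all genes, the median of the replication genes went from 0.36 to -0.20. The direction of the group as a whole therefore turned with the limits of the range, and counts within it rested on few cells.

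Cells of the range differed between groups in other measures too. Their median number of detected genes was 1278 in Flvcr-deleted, 1385 in EPO-treated and 1565.5 in wild-type cells. The summed level of 6 erythroid markers (Hbb-b1, Hba-a1, Alas2, Slc4a1, Klf1 and Epor) ranged from 45.0 to 57.8 in Flvcr-deleted, from 37.4 to 61.5 in EPO-treated and from 52.1 to 70.5 in wild-type cells of the range, and all 6 were detected in each group. Globin genes took a median of 90.1% of the summed RPKM in Flvcr-deleted, 76.0% in EPO-treated and 88.7% in wild-type cells. The part of these values in the differences was not tested. Of 13 granulocyte and monocyte markers, 1 was detected in any Flvcr-deleted cell of the range and 0 in EPO-treated and wild-type cells.

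Pcna had the largest positive difference in the range, 2.77. Its level went up to 10.24 with a median of 7.14 in the 12 Flvcr-deleted cells, up to 9.90 with a median of 6.56 in the 12 EPO-treated cells, and up to 8.96 with a median of 1.37 in the 18 wild-type cells. In class B the 4 Flvcr-deleted cells had 7.43, 8.29, 8.10 and 0, and the 2 wild-type cells had 6.17 and 0. Cells of each group were at 0, so the groups overlapped. Mcm5 differed by 2.55, and 8 of 12 cells had it after deletion, 6 of 12 under EPO and 5 of 18 in wild type.

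Dut (NM_001159646), the dUTPase that keeps uracil out of DNA, was present in 8 of 12 Flvcr-deleted and 6 of 12 EPO-treated cells of the range. Of the 18 wild-type cells 0 had it, and the exact 95% interval of that share reaches 18.5%. Its levels reached 6.17 in Flvcr-deleted, 7.26 in EPO-treated and 0.88 in wild-type cells, and its difference between Flvcr-deleted and wild-type cells was 2.02. In wild-type cells of all ranges it was detected in 29 of 48. Prim1 differed by 1.91 and Rpa3, the smallest subunit of the single-strand binding complex, by 1.42. A gene counted as higher was above 0 in every class compared, so leaving out a class could not turn its sign. With limits of 800 and 2200 detected genes the differences of Pcna, Mcm5, Dut and Prim1 were 0.29, 0.72, 1.04 and 0.88.

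Fen1 had the largest negative difference in the range, -2.40. After deletion 1 of 12 cells had it, at 1.54, under EPO 2 of 12, up to 4.78, and in wild type 14 of 18, with a median of 2.24 and a highest level of 5.33. Tk1 differed by -1.95: its median level was 4.65 in Flvcr-deleted, 6.91 in EPO-treated and 6.81 in wild-type cells, and 8 of 12 cells had it after deletion, 11 of 12 under EPO and 16 of 18 in wild type. Tyms differed by -1.81, with medians of 2.65 in Flvcr-deleted, 4.18 in EPO-treated and 5.11 in wild-type cells. Both thymidylate genes were thus lower in Flvcr-deleted cells in the range, as they were over all cells, and wild-type and EPO-treated cells lay closer together. With limits of 800 and 2200 detected genes Fen1 differed by -2.51, Tk1 by -3.15 and Tyms by -2.70. Rrm1 differed by -1.50 and Cdc6 by -1.13 in the range.

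Some large differences of the range did not have the same sign in every class. Dnmt1 differed by -1.92, with -4.39 in class B, 0.15 in class C and -1.53 in class D. Slbp differed by -1.67, with -3.85 in class B, 1.36 in class C and -2.52 in class D, so both genes were low in classes B and D. Chaf1a differed by 1.67, of which class C gave 5.19, class B 0 and class D -0.17. Mcm7, a further helicase subunit, differed by -5.05 in class B, 1.88 in class C and -0.64 in class D. Mcm3, which had the largest difference over all cells, differed by -0.34 in the range, with -2.37 in class B, 0.82 in class C and 0.53 in class D.

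**Figure D3:**
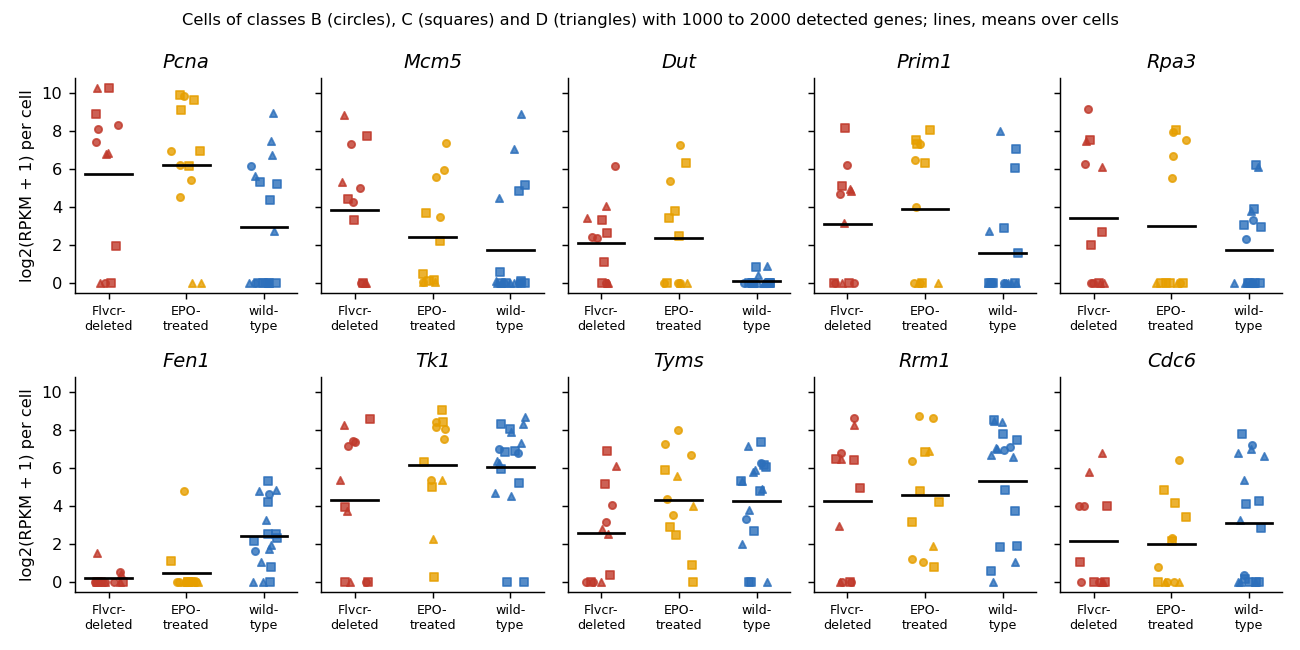
Each point is 1 cell of classes B (circles), C (squares) or D (triangles) with 1000 to 2000 detected genes, the vertical axis is log2(RPKM + 1), and lines are means over cells of Flvcr-deleted, EPO-treated and wild-type cells. The upper row shows the 5 genes higher and the lower row the 5 genes lower in Flvcr-deleted than wild-type cells; Dut is below 1 in all 18 wild-type cells and Fen1 at or near 0 in nearly all Flvcr-deleted cells.

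A least-squares fit over all cells of classes B to D, with group, class letter and the log2 number of detected genes as terms, gave a second way to set the groups side by side. In it 14 of the 44 genes had a coefficient of -1 or lower for Flvcr-deleted against wild-type cells and 2 of 1 or higher, against 24.4% and 26.3% of all 2540 genes. The median coefficient was -0.39 over the replication genes and 0.03 over all genes, and its sign rested on 4 cells named below. Tk1 had the lowest (-3.19), followed by Cdc6 (-2.44), Fen1 (-2.37), Tyms (-1.99), Slbp (-1.80), Rpa1 (-1.66) and Rrm1 (-1.61). Rpa3 (1.76) and Dut (1.25) were the 2 genes above 1, Pcna was at 0.88, and Mcm5 (0.11) and Prim1 (0.01) lay near 0.

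Nucleotide supply split in the same way in both comparisons that took detected genes into account. Tk1, Tyms and Rrm1 were lower and Dut higher in Flvcr-deleted than in wild-type cells, while Rrm2 stood at 0.61 in the range and at -0.98 in the fit. The 5 genes lower and the 5 genes higher in the range had the same sign in the fit, which used the same cells among others and is therefore no separate evidence. Without 4 Flvcr-deleted class B cells that had Alas2 at 0, the fit gave 6 genes at -1 or lower and 6 at 1 or higher, against 22.6% and 27.2% of all genes, and the median coefficient was 0.21 against 0.06 over all genes. The direction of the group as a whole in the fit therefore turned when these 4 cells were left out.

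Genes of the same pathways outside the 47 were described from 4 further lists, to be read against the shares of all genes given above: 44.6% lower over 4 classes, and 16.0% higher and 19.1% lower in the range. Of 20 further replication factors 12 were lower in Flvcr-deleted than wild-type cells over 4 classes (median -1.53), and in the range 0 were higher and 1 lower (median -0.09). Asf1b, a histone chaperone of replication, differed by -4.21 over 4 classes and -2.11 in the range, and Tipin, of the fork protection complex, by -3.18 and 1.97. Of 12 genes of nucleotide synthesis 6 were lower over 4 classes (median -1.41), and 4 were higher in the range (median 0.80), with Paics, of purine synthesis, at -3.11 and 2.16. Of 11 E2F and G1/S regulators 4 were lower over 4 classes (median -1.86) and 1 was higher in the range (median 0.46). Of 32 genes of mitosis and spindle 20 were lower over 4 classes (median -2.39) and 21 in the range (median -2.23), so unlike the replication genes their median stayed low at a like number of detected genes. Cdk1, the mitotic kinase, differed by -3.74 over 4 classes and -3.16 in the range. The difference between the lists was not tested.

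EPO-treated cells had lower levels of replication genes than wild-type cells as well, over 4 classes. Of the 44 genes 25 were lower and 0 higher, against 35.2% lower and 0.236% higher of all 2540, with a median of -1.53 against -1.02. Mcm7 (-3.54), Mcm5 (-3.26), Slbp (-3.24), Mcm3 (-3.12), Cdc6 (-3.00) and Mcm4 (-2.81) had the largest differences, and Rrm2 (-0.30), Prim1 (-0.33), Rfc5 (-0.40) and Pola1 (-0.50) the smallest. In the range Rrm2 was higher (1.56) and Fen1 (-2.21) and Rrm1 (-1.23) were lower, which is 1 and 2 genes, against 7.99% and 14.0% of all genes, with a median of 0.36 against -0.06. In the fit with detected genes 12 were at 1 or higher and 2 at -1 or lower, against 23.2% and 15.8% of all genes, with a median of 0.54 against 0.22. Over classes B to D alone 29 were lower and 0 higher, against 42.0% and 0.512%. The values of EPO-treated cells carried at most 2 decimals in the table, unlike those of both other groups, so a difference in processing and the group cannot be told apart.

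Between Flvcr-deleted and EPO-treated cells few replication genes were called over 4 classes. Of the 44 genes 2 were lower in Flvcr-deleted cells (Rfc2, -1.91, and Pola1, -1.18) and 0 higher, against 6.26% and 2.44% of all genes, with a median of -0.63 against -0.26. Over classes B to D 4 were lower and 0 higher, against 8.86% and 7.76% of all genes. Without class D, which held 5 Flvcr-deleted and 4 EPO-treated cells, 21 were lower and 0 higher, against 15.3% and 2.36% of all genes. In the range 0 were lower and 1 was higher (Prim2, a primase subunit, 1.00), against 7.64% and 9.92% of all genes, with a median of -0.29 against 0.02. In the fit with detected genes 18 were at -1 or lower and 0 at 1 or higher, against 12.0% and 12.5% of all genes, with a median of -0.89, and Tk1 (-2.42), Lig1 (-2.34) and Rrm2 (-2.30) were lowest. These 3 comparisons share their samples pairwise, so their values for a gene are not independent.

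From class B to class D the 3 groups differed in how replication genes ran. In Flvcr-deleted cells 10 of 44 genes were higher by at least 1 in class D and 5 lower, against 13.5% and 30.6% of all 2540 genes, with a median of 0.16 against -0.43. In EPO-treated cells 42 were lower and 0 higher, against 58.3% and 10.9%, with a median of -2.87 against -1.36. In wild-type cells 35 were lower and 0 higher, against 46.1% and 5.39%, with a median of -1.92 against -0.90. Whether the groups differ in this course was not tested.

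The Flvcr-deleted course rested on 5 class D cells and on the low values of class B. Rrm2 differed by 2.51 between class D and class B: the 5 class D cells had 7.96, 6.03, 9.18, 9.23 and 10.15, and the 16 class B cells a lowest level of 0, a median of 7.28 and a highest of 9.09. All 5 class D cells expressed it, within the span of class B or just above it. Orc1, the largest ORC subunit, differed by 2.06, Mcm2 by 1.88, Rrm1 by 1.72 and Tk1 by 1.56, while Rfc4, a clamp loader subunit, differed by -1.82. With every cell scaled to 1 sum, 5 genes were higher and 11 lower, against 8.31% and 42.0% of all genes. The median was then -0.20, against -0.79 over all genes. The count of higher against lower genes thus turned with the scaling, while the median beyond all genes was 0.60 both ways. Without the 4 class B cells with Alas2 at 0, 15 genes were higher and 1 lower, against 20.0% and 13.5% of all genes.

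In EPO-treated cells Pcna had the largest difference between class D and class B, -7.24. It was at 0 in all 4 class D cells, and between 3.11 and 9.85 in all 11 class B cells, with a median of 7.50, so that these cells did not overlap. Rfc4 (-6.40) was also at 0 in all 4 class D cells and detected in 11 of 11 class B cells. Uhrf1 differed by -5.44, with 1 class D cell at 6.45 and 3 at 0, Orc6 by -5.17, Gmnn by -4.96 and Tk1 by -4.88. Rrm2 was kept in all 4 class D cells, at 4.08, 8.17, 9.06 and 8.92. Detected genes per cell had a median of 1087.5 in these class D cells and 1771 in class B cells, which moved the same way.

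In wild-type cells the largest differences between class D and class B were those of Mcm3 (-3.50), Dut (-3.49), Mcm6 (-3.08), Orc6 (-2.98), Pold2 (-2.81), a subunit of polymerase delta, and Rfc2 (-2.79). Mcm3 was detected in 7 of 13 class D cells, with a median of 2.17, and in 9 of 10 class B cells, with a median of 7.61. Tk1 differed by -0.60 and was detected in all 13 class D and all 10 class B cells, and Tyms differed by -0.69. Detected genes per cell had a median of 1891 in class D and 3033.5 in class B. Within the chips, Spearman's rho between replication genes detected and Ter119 over classes B to D was 0.09 in 30 Flvcr-deleted, -0.62 in 21 EPO-treated cells of chip SCP7 and -0.39 in 42 wild-type cells.

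**Figure D4:**
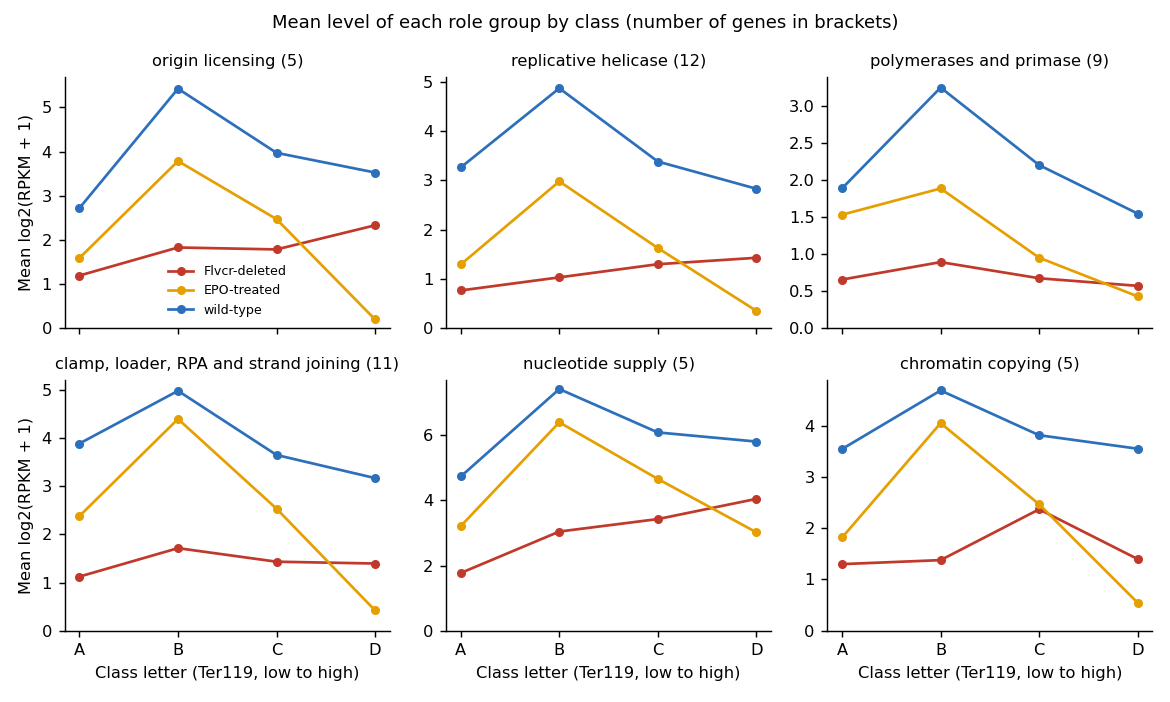
Each panel gives the mean log2(RPKM + 1) of the genes of 1 role, number in brackets, by class letter from A to D (low to high Ter119), with a line for Flvcr-deleted, EPO-treated and wild-type cells. In classes B to D the wild-type line falls after class B and lies highest in every role, and the EPO-treated line falls after class B to values below 0.55 in class D in 5 roles. The Flvcr-deleted line lies lowest in classes B and C and above the EPO-treated line in class D. For nucleotide supply the Flvcr-deleted line rises from 3.04 in class B to 4.05 in class D.

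Levels of replication genes varied together among cells of one group. After adjustment of ranks for the number of detected genes, the median Spearman's rho of a gene with the mean of the other replication genes over classes B to D was 0.261 in Flvcr-deleted cells, 0.261 in EPO-treated cells and 0.296 in wild-type cells, against 0.010, 0.065 and 0.022 for the other genes that passed the filter. It was above 0 for 44 of 47 genes in Flvcr-deleted, 42 in EPO-treated and 47 in wild-type cells. Without the adjustment the medians were 0.537, 0.581 and 0.630, against 0.377, 0.411 and 0.363 for the other genes. These cells share libraries and depth, and values of this size describe a weak relation.

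The E2F-type words did not sort the genes by their difference in the range. Of the 5 higher genes 1 (Mcm5) had one, and of the 5 lower genes 1 (Cdc6). CCAAT was found in the promoters of 4 of the 5 higher genes (Pcna, Mcm5, Prim1 and Rpa3) and of 1 of the 5 lower genes (Rrm1). With 5 genes on each side these counts are given as a description of the windows.

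Some values are uncertain because reads may be shared. Exons of Cdc45, Chaf1a, Fen1, Gins2, Lig1, Mcm7, Orc1, Orc6, Pole, Rfc2, Rfc4, Rfc5, Slbp and Tk1 overlap those of a gene on the other strand, and whether counting used the strand is not given in the sources used here. Exons of Pole2 and Rpa1 overlap another gene on the same strand. Pcna and Tyms have processed pseudogenes, named Pcna-ps1, Pcna-ps2 and Tyms-ps, whose reads the counting could have split or added.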

How the data were processed

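Each of the 127 cells was captured on a microfluidic chip, and its cDNA was amplified and made into a library, per the labels' protocols. The values were RPKM (reads scaled to transcript length and depth) deposited by the authors as a table of 34898 transcript rows. The submitters' processing notes name TopHat2 2.0.9 and the mouse build mm9; the counting tool is not given in the sources used here. A further 4 columns matched none of the samples and were left out.

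From these values log2(RPKM + 1) was taken, genes with a mean of at least 1 were kept (2540), and means were compared within class letters. Python 3.11.15, numpy 2.4.6, pandas 2.3.3, scipy 1.17.1 and matplotlib 3.10.9 were used, and the scripts were tested on simulated data. Read depth is unknown, so detected genes per cell stand for it. Cells of a group are not replicates, and no p-value was made from them. Other pseudocounts, filters, scalings, ranges and left-out cells were tried. The replication genes and further lists were chosen with earlier results of these data known. Genes are named by a rule: 3 of each role and 10 in the range by size, and 6 in each other comparison; genes outside it are named to account for the set. A further marker gene is not reported here.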

Additional observations from a re-analysis of the deposited data

How the results depend on the processing

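No called value changed sign under the alternatives run, but 5 of the replication genes' own medians below 1 in size did. Flvcr-deleted minus wild-type did in the fit (0.21 without cells with Alas2 at 0) and in the range (-0.03 without class C, -0.56 at 800 to 2200 detected genes). EPO-treated minus wild-type did in the range (-0.01 without class B, -0.06 at 800 to 2200), as did Flvcr-deleted minus EPO-treated (0.36 without class B). Class D minus class B in Flvcr-deleted cells did as well (-0.05 with a pseudocount of 10, -0.20 with 1 sum). The median beyond all genes also changed sign for Flvcr-deleted minus EPO-treated over 4 classes, from -0.36 to 0.05 without class B. By a loose rule 327 summary values held while 86 moved. Those that held include the range without cells with Alas2 at 0, which left out no cell and could change nothing. A median of the fit or of class D minus class B held if it shifted by less than 1. Other values held if they shifted by less than their spread, and counts if they stayed within a fixed ratio. A median that held could thus change sign, as that of the fit did. The causes were not tested. For Flvcr-deleted minus wild-type cells over 4 classes, the median was -3.22 with a pseudocount of 0.1, -0.995 (22 lower) with 10, and -3.00 (24 of 26 lower) with a mean of at least 2; the median beyond all genes was -1.98 without a filter and -1.56 with a mean of at least 2. Over classes B to D these were -3.43, -1.25 (24 lower), 24 of 26 lower, and -2.24 without a filter. Without a filter the median of all 24320 gene symbols was 0 in each comparison. Values beyond all genes without a filter, here and below, are therefore the replication genes' own medians. Of all genes 18.5% were lower there with a pseudocount of 10, and 51.4% with a mean of at least 2. In the fit, a pseudocount of 10 gave 6 lower and 1 higher, against 9.80% and 14.5% of all genes. Leaving out 4 cells with Alas2 at 0 gave 6 and 6, against 22.6% and 27.2%. In the range, a pseudocount of 10 gave 1 lower and 3 higher, against 9.29% and 10.1% of all genes. Leaving out class B gave 8 higher (against 20.2%), class C 11 lower (against 24.4%) and class D 11 higher (against 22.0%). Limits of 800 to 2200 gave 9 lower and 0 higher, against 24.3% and 11.7%, with a median of -0.56, or -0.20 beyond all genes.

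For EPO-treated minus wild-type cells over 4 classes, the median was -2.47 with a pseudocount of 0.1 (-0.78 beyond all genes), -0.69 with 10 (13 lower), -2.06 with a mean of at least 2, -2.08 with cells scaled without globins and -1.16 with every cell weighted alike; without a filter it was -1.40 beyond all genes. Beside the 13 lower with a pseudocount of 10, 11.5% of all genes were lower. In the range, 1 was lower with a pseudocount of 10, a mean of at least 2, cells scaled to 1 sum or weighted alike. The shares of all genes were 6.61%, 16.0%, 12.6% and 12.7% in that order. There, leaving out class C gave 6 lower and 2 higher, against 19.3% and 13.7% of all genes, and class D 20 higher, against 19.7%. Limits of 1000 to 1500 gave 0 lower and 3 higher, against 10.6% and 6.97%, and 800 to 2200 gave 8 and 3, against 18.0% and 5.43%.

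For Flvcr-deleted minus EPO-treated cells, the shares of all genes called the same way are given in brackets. Over 4 classes, 4 were lower with a pseudocount of 0.1 (11.6%), without class A (8.86%) or without class C (9.80%). With a pseudocount of 10 (under 2%), a mean of at least 2 (8.65%) or without class B (8.03%) 1 was lower. Without class D (15.3%) 21 were lower. In the range, 3 were lower with a pseudocount of 0.1 (9.37%) or at 800 to 2200 (9.13%), and 14 without class D (15.0%). Without a filter (0.954%), with 1 sum (9.49%), with rows summed (8.15%) or with cells weighted alike (7.01%) 1 was lower. When scaled without globins (9.53%), without class C (15.0%) or at 1000 to 1500 (7.09%) 4 were lower. There, 2 were higher with a pseudocount of 0.1 (13.4%) or at 1000 to 1500 (9.09%). Without class B (20.9%) or C (14.3%) 4 were higher, and without chip SCP6 3 (13.6%). With a pseudocount of 10 (4.61%), a mean of at least 2 (15.2%), 1 sum (6.57%), cells weighted alike (9.06%) or 800 to 2200 (7.48%) 0 were higher.

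For class D minus class B in Flvcr-deleted cells, 11 were lower with a pseudocount of 0.1, against 40.9% of all genes. With 10, 1 was lower and 3 higher, against 10.2% and 4.21%. With 1 sum 11 were lower and 5 higher, against 42.0% and 8.31%. When scaled without globins 8 were lower and 16 higher, against 32.4% and 24.8%. Without cells with Alas2 at 0 (an alternative chosen after seeing the data) 1 was lower, against 13.5%. In EPO-treated cells the median was -4.71 with a pseudocount of 0.1 (-2.60 beyond all genes) and -1.35 with 10, and -2.73 beyond all genes without a filter. Without adjustment for detected genes, the median correlation with the other replication genes was 0.537 in Flvcr-deleted, 0.581 in EPO-treated and 0.630 in wild-type cells. No paired analysis was possible because cells carry only numbers on separate chips and no animal is named. With 2 wild-type class B cells in the range and no known read depth, small differences were not detectable.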

Other observations

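Among all other genes that passed the filter, those whose level was most like the mean of the replication genes in 42 wild-type cells of classes B to D, by Spearman's rho adjusted for detected genes, were Rpl4 (0.573), 2410006H16Rik (0.549), Rpl35 (0.540), Rab8a (0.528), Fbxo5 (0.520), Etfb (0.513), Lamtor3 (0.512), Eif3e (0.508), Rpl18 (0.502) and Wdr38 (0.496). In 30 Flvcr-deleted cells Tacc3 (0.703), Cenpk (0.637) and Psma7 (0.631) came first. These are the highest of many genes over few cells that share libraries, and are given as values alone.

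In class A, 1 of 18 Flvcr-deleted cells, 3 of 7 cells under EPO and 4 of 6 in wild type had at least 3 of 13 granulocyte and monocyte markers, although all cells are labelled erythroblasts. The part of these cells in the class A values of replication genes was not tested, and the median over classes B to D for Flvcr-deleted minus wild-type cells was -2.29 without them.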
